A study of Mus musculus with 32 samples.

Results

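The chromatin binding of the transcription factor Myc was compared between wild-type J1 mouse embryonic stem (ES) cells and J1 cells with a knockout (KO) of Taf5l or of Taf6l. The regions described are the Myc peaks that the authors called by chromatin immunoprecipitation and sequencing (ChIP-seq) on chromosomes 1 to 19, apart from a run of short peaks on chromosome 3 that is given at the end of the results. By this choice 531 Myc peaks were used in wild-type cells, 20 in Taf5l-KO cells and 11 in Taf6l-KO, together 562 of the 390088 peaks in the 26 deposited lists. The series holds 32 samples, in which Myc, Oct4, H3K9ac, H3K4me3 and 3 forms of RNA polymerase II were each precipitated in the 3 genotypes. TAF5L and TAF6L were also pulled down themselves, by a Flag-Biotin tag (FB), from other wild-type J1 lines, with BirA, the enzyme that attaches biotin, as the control. All cells grew in serum with the cytokine LIF and were fixed with formaldehyde, and the labels name no other treatment. How many clones or cultures stand behind each knockout is not given in the labels. Each genotype had 1 Myc library, so the genotypes could not be compared by a test, and the 95% intervals given with shares (exact, Clopper-Pearson) cover counting error only. Positions are in the mouse build mm9, and no peak was assigned to a gene.

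Myc binds DNA as a dimer with Max, preferentially at E-box sequences, and is found mostly at promoters that are already active. It is known for driving genes of ribosome production, metabolism and cell growth, and in ES cells it belongs to a network that sustains self-renewal. TAF5L and TAF6L are subunits of SAGA-type coactivator complexes, which carry the acetyltransferase GCN5 or PCAF. GCN5 and PCAF acetylate histone H3 at lysine 9 (H3K9ac), and Myc is known to recruit such complexes through TRRAP. H3K4me3 marks active and poised promoters, RNAP stands here for total RNA polymerase II, and RNAP-ser5 and RNAP-ser2 for polymerase phosphorylated during initiation and elongation.

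Nearly all wild-type Myc peaks were absent from the knockout lists. The number of Myc peaks was 0.0377 times that of wild-type cells in Taf5l-KO cells and 0.0207 times in Taf6l-KO. The sequence under the peaks came to 107 kb in wild-type cells, 2.53 kb in Taf5l-KO cells and 0.871 kb in Taf6l-KO. Of the 531 wild-type peaks, 20 shared at least 1 bp with a Taf5l-KO peak (kept, 3.77%, interval 2.32 to 5.76) and 8 with a Taf6l-KO peak (1.51%, interval 0.653 to 2.95). Those kept in both knockouts numbered 3, those kept in Taf5l-KO alone 17, and those kept in Taf6l-KO alone 5. The other 506 peaks (95.3%) were lost from both lists. In the other direction, 19 of the 20 Taf5l-KO peaks (95%, interval 75.1 to 99.9) and 8 of the 11 Taf6l-KO peaks (72.7%, interval 39.0 to 94.0) lay on a wild-type Myc peak, so 4 of 31 knockout peaks were new.

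The depth of the libraries differed far less than the number of peaks. After removal of duplicate tags, the Myc libraries held 9731773 tags in wild-type cells, 11653920 in Taf5l-KO cells and 8843637 in Taf6l-KO, and between 51.6% and 59.8% of the tags had been duplicates. The knockout ChIP libraries thus had 1.198 and 0.909 times the tags of the wild-type library. The inputs against which peaks were called held 7771755, 6245652 and 5923469 unique tags. The fragment size that the authors' peak caller modelled was 95 bp in the wild-type Myc library, against 51 bp in Taf5l-KO cells and 50 bp in Taf6l-KO, where it equals or nearly equals the tag size of 50 bp. Each tag is extended to this size before tags are piled up, so the fragment size enters the height and the width of each peak. How much of the loss of peaks goes with the shorter fragment size and the smaller knockout inputs was not tested.

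Oct4, another ES cell transcription factor called from the same inputs with the same settings, kept a larger share of its peaks in the knockout lists than Myc, although more than 50% of them were absent from Taf6l-KO. Oct4 had 2491 peaks in the wild-type list, with 2956 in Taf5l-KO cells and 2008 in Taf6l-KO, and 59.7% (57.7 to 61.6) and 47.2% (45.2 to 49.2) of the peaks in wild-type cells were kept. Among the 100 strongest wild-type peaks by fold enrichment, 99 Oct4 peaks were kept in Taf5l-KO cells and 98 in Taf6l-KO. For Myc these numbers were 12 (interval 6.36 to 20.02%) and 2 (0.243 to 7.04%). The 100 strongest are a much larger part of the 531 Myc peaks than of the 2491 Oct4 peaks, so the 2 cuts are unlike. The knockout Oct4 libraries held fewer unique tags than the knockout Myc libraries (7068955 and 6628480), and their modelled fragment sizes were 122 and 120 bp, against 109 bp in wild-type cells. The 2 factors were precipitated with different antibodies and had 1 library each per genotype, so this comparison has no replicate check.

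Wild-type Myc peaks were narrow, and the few knockout peaks were narrower. The median width was 163 bp in wild-type cells (quartiles 120 to 247.5, range 95 to 941), 87.5 bp in Taf5l-KO (74 to 149, range 51 to 391) and 76 bp in Taf6l-KO (64 to 93, range 51 to 122). In wild-type cells 47 peaks were exactly as wide as the modelled fragment. Divided by each library's own fragment size, the median widths were 1.72, 1.72 and 1.52 fragments, so most of the difference in width between the lists disappeared on that scale. At −log10 q of at least 5, a stricter threshold, the median width in Taf5l-KO was 156.5 bp, over 8 peaks.

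The peaks also differed in how clearly they stood out within their own list. Fold enrichment is the authors' ratio of the tag pileup to the local background, and it ranged from 1.85 to 41.6 in wild-type cells with a median of 8.16. In Taf5l-KO it ranged from 5.59 to 13.7 (median 7.31) and in Taf6l-KO from 2.28 to 14.2 (median 6.53). These ratios come from separately called lists and are given side by side without a comparison of signal. A −log10 q of at least 5 was reached by 398 wild-type peaks (74.95%), 8 Taf5l-KO peaks (40%) and 3 Taf6l-KO peaks (27.3%). Divided by each library's scaling factor, every pileup height fell within 0.05 of a whole number of tags. On that scale the median height of a Myc peak was 17 tags in wild-type cells, 17 in Taf5l-KO cells and 11 in Taf6l-KO. These are heights of tags extended to each library's fragment size, not all the tags within a peak. The greatest heights were 184, 28 and 87. The 184 and the 87 belong to the same site on chromosome 15, which had the lowest fold enrichment in both lists (1.85 and 2.28). Many of these peaks therefore rest on few tags at their highest point.

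**Figure D1:**
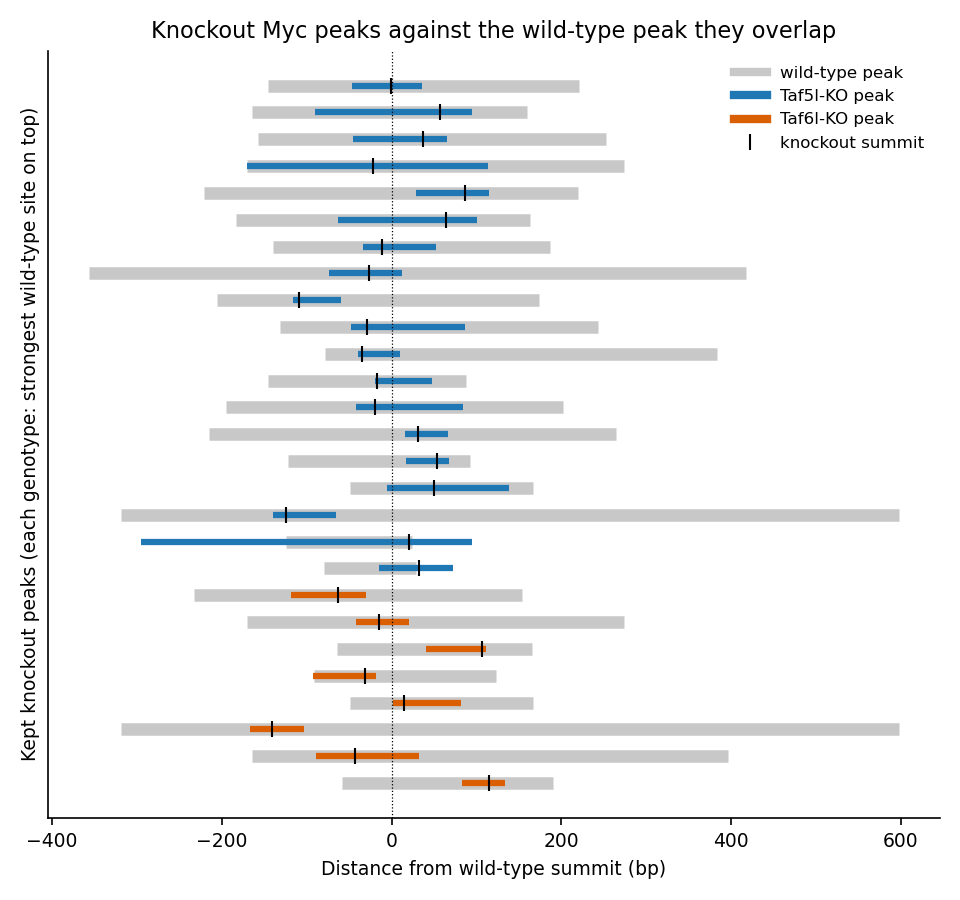
Each row is 1 knockout Myc peak that overlapped a wild-type peak, drawn as distance in bp from the summit of that wild-type peak (grey, wild-type peak; blue, 19 Taf5l-KO peaks; orange, 8 Taf6l-KO peaks; tick, knockout summit). The knockout peaks mostly sit inside the wild-type peak, with median summit distances of 32 and 53 bp.

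Since a kept peak is one that overlaps, its place is partly fixed by that rule, and the following distances only describe the kept peaks. The summit of the knockout peak was a median of 32 bp from the wild-type summit in Taf5l-KO (range 1 to 124 bp) and 53 bp in Taf6l-KO (range 14 to 141 bp). It lay within 100 bp at 17 of 19 kept peaks in Taf5l-KO and 5 of 8 in Taf6l-KO. The knockout peak lay wholly inside the wild-type peak in 17 of 19 and 7 of 8 cases, as the plot of distances from the wild-type summit shows. It covered a median of 27.01% of the wild-type peak in Taf5l-KO cells and 22.4% in Taf6l-KO, and the wild-type peak was a median of 3.70 and 4.48 times as wide. When 50% of the wild-type peak had to be covered, the kept shares were 0.942% in Taf5l-KO cells and 0% in Taf6l-KO, so the kept share depends on this choice. Knockout peaks were called with shorter modelled fragments, which enter their width. The part of this in the inside counts, covered shares and width ratios was not tested.

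Kept peaks were among the stronger and wider wild-type Myc peaks. The 25 peaks kept in either knockout had a median wild-type fold enrichment of 12.5 (quartiles 9.31 to 21.0) and a median width of 368 bp (230 to 442). The 506 lost peaks had medians of 8.16 (6.49 to 10.4) and 159 bp (119 to 239). Of the 25 kept peaks, 22 lay in the stronger 50% of the wild-type list, and 4 were among its 10 strongest peaks. The distributions overlapped widely, as the plot of width against fold enrichment shows. A fold enrichment above the median of the kept peaks was found at 83 lost peaks, and 35 lost peaks were wider than the median kept peak.

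**Figure D2:**
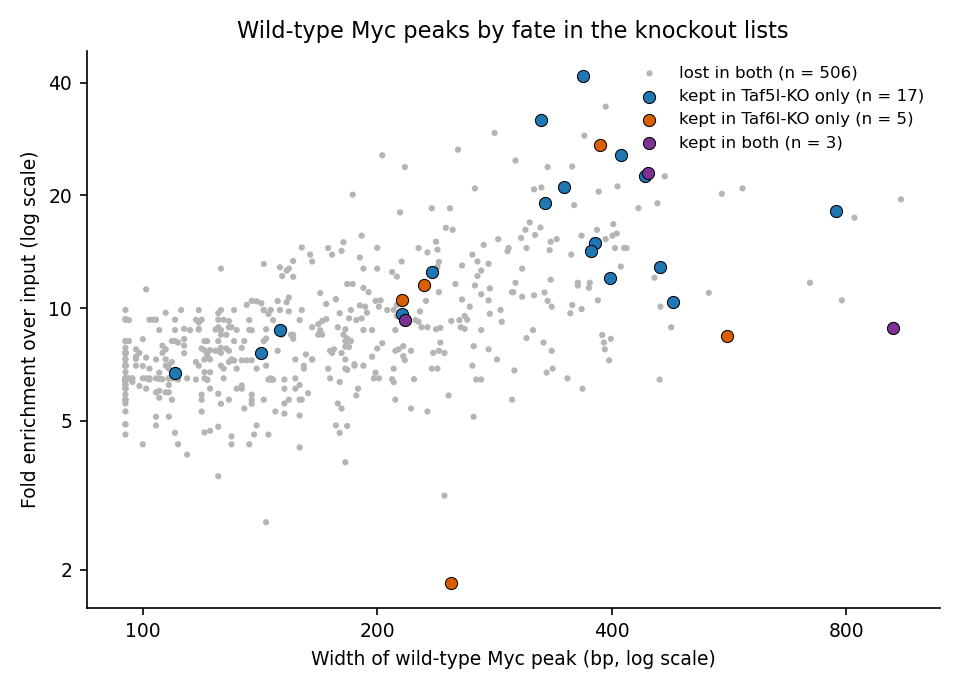
Each point is 1 of the 531 wild-type Myc peaks, by width in bp and fold enrichment over input (both axes logarithmic), coloured by whether a knockout peak overlapped it. Kept peaks gather towards high width and fold enrichment, but 506 lost peaks span nearly the whole range, up to a width of 941 bp.

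Split into 5 quintiles by wild-type fold enrichment, the kept peaks of Taf5l-KO gathered in the strongest quintile. From the weakest to the strongest quintile (107 peaks in the weakest and 106 in each of the others), 0, 2, 2, 3 and 13 peaks were kept in Taf5l-KO. The share in the strongest quintile was 12.3% (6.69 to 20.1), and 0 of 107 in the weakest allows a share of up to 2.80%, taking 3 counts as the limit of a count of 0, as in all such limits here (the exact interval of this share reaches 3.39%). In Taf6l-KO the numbers were 1, 0, 2, 3 and 2, with no such gathering. The strongest quintile began at a fold enrichment of 11.7, and its peaks had a median width of 306.5 bp against 130 bp in the weakest quintile. The split by strength is therefore also a split by width.

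Width and strength were then considered together. Of the 61 peaks in both the widest and the strongest quintile, 13 were kept in either knockout (21.3%, interval 11.9 to 33.7). Of the 45 peaks in the widest quintile only, 3 were kept (6.67%, 1.40 to 18.3), and of the 45 in the strongest quintile only, 1 was kept (2.22%, 0.0562 to 11.8). Among the 380 peaks in neither, 8 were kept (2.11%, 0.913 to 4.11). Within the strongest quintile, the 14 kept peaks had a median width of 384 bp and the 92 lost peaks 280.5 bp.

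**Figure D3:**
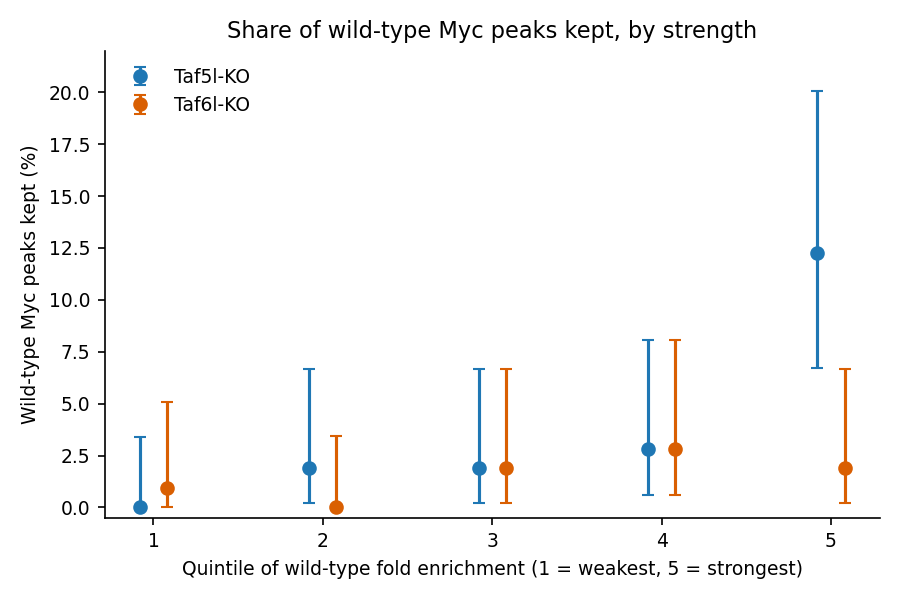
Share (%) of wild-type Myc peaks kept in Taf5l-KO (blue) and Taf6l-KO (orange) in each quintile of wild-type fold enrichment, with exact 95% binomial intervals as bars. The point for Taf5l-KO in the strongest quintile, 12.3%, stands above the others, which lie between 0% and 2.83%.

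Wild-type Myc peaks lay mostly at active promoter chromatin. Of the 531, 83.6% overlapped an H3K4me3 peak, 86.1% an RNAP peak, 59.9% an H3K9ac peak, 74.6% RNAP-ser2 and 58% RNAP-ser5 in wild-type cells. H3K4me3, RNAP and H3K9ac were found together at 305 peaks (57.4%, interval 53.1 to 61.7), and H3K4me3 with RNAP but without H3K9ac at 112 (21.1%). RNAP alone of these 3 was found at 36 peaks, H3K4me3 alone at 21, the other combinations at 13 in all, and none of the 3 at 44. Only 14 Myc peaks (2.64%) overlapped Oct4, and 7 of these were among the 36 peaks with RNAP alone. A TAF6L-FB peak was found at 61 Myc peaks (11.5%), a TAF5L-FB peak at 6, and a BirA control peak at none, which allows a share of up to 0.565%.

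H3K9ac, H3K4me3 and RNAP peaks with Myc tended to be wide and strong within their own lists, but most strong peaks held no Myc. Of the 403, 3103 and 2801 strongest peaks of these lists by fold enrichment, 26.3%, 5.19% and 6.71% held Myc. The 407 H3K4me3 peaks that held Myc were 1.31% of that list, and their median width was 2802 bp against 782 bp for those without Myc. The 420 RNAP peaks with Myc had a median width of 1393 bp against 472 bp, and the 286 H3K9ac peaks with Myc (7.11% of the list) 1061.5 bp against 458 bp. By fold enrichment, the median H3K9ac, H3K4me3 and RNAP peak with Myc stood at the 81.9th, 86.4th and 88.6th percentile of its list. For Oct4 the median was at the 36.7th percentile, and 0 of the 249 strongest Oct4 peaks held Myc, which allows a share of up to 1.205%. Wide peaks overlap more Myc peaks by their size alone, and this part of the difference was not tested.

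The place of the Myc summit within these peaks is given next, as a distance that grows with the width of the peak. The distance from the Myc summit to the centre of the overlapping peak was a median of 250 bp for H3K9ac, 513.75 bp for H3K4me3 and 289.5 bp for RNAP. At the 14 sites shared with Oct4 it was 24.5 bp, in Oct4 peaks that are far narrower (median 156 bp). At the 61 sites shared with TAF6L-FB it was 60 bp.

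At both lost and kept Myc peaks, most sites carried H3K4me3, RNAP and H3K9ac in wild-type cells, with higher shares at the kept ones. H3K9ac was present at 299 of 506 lost peaks (59.1%, interval 54.7 to 63.4) and at 19 of 25 kept peaks (76.0%, 54.9 to 90.6). H3K4me3 was present at 83.4% of lost and 88.0% of kept peaks, and RNAP at 85.8% and 92.0%. All 5 promoter lists (H3K9ac, H3K4me3 and the 3 polymerase forms) were present at 213 lost peaks (42.1%) and 15 kept peaks (60%, 38.7 to 78.9). TAF6L-FB was found at 55 lost peaks (10.9%, 8.29 to 13.9) and at 6 kept peaks (24.0%, 9.36 to 45.1). All 6 of these kept peaks lay under peaks of TAF6L-FB line 15, and line 9 gave 1 of 25. Line 15 alone was at 42 lost peaks (8.30%), just below the kept interval, which is the same 9.36 to 45.1. Of the 6, 1 lies on chromosome 15 from 74917191 to 74917439, where the line 15 fold enrichment was only 1.33. Without the 3 wild-type peaks whose pileup was at least 10 times their fold enrichment, both lines together were at 10.5% of lost peaks. At kept peaks the share was then 20.8% (7.13 to 42.2). That limit was chosen after seeing the data. For H3K9ac, H3K4me3, RNAP, all 5 lists together and TAF6L-FB over both lines, the interval for the 25 kept peaks included the lost share.

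The shares were also compared within the strongest quintile and under a stricter threshold. In that quintile the kept peaks still had a higher median fold enrichment than the lost ones. They were also wider, with medians of 384 and 280.5 bp. Strength and width were therefore not held equal, and their part in the shares of that quintile was not tested. Within the strongest quintile, H3K9ac was present at 71 of 92 lost peaks (77.2%, 67.2 to 85.3) and at 14 of 14 kept peaks (76.8 to 100). H3K4me3 was present at 81 of the 92 lost and all 14 kept peaks, and RNAP at 83 and 14. When every Myc list was limited to −log10 q of at least 5, the direction turned for H3K4me3 and all 3 polymerase forms. The knockout lists then held only 8 and 3 peaks, and wild-type peaks under a weaker knockout peak counted as lost. H3K4me3 was then at 85.1% of lost and 75% of kept peaks (34.9 to 96.8), and RNAP at 87.4% and 75% (34.9 to 96.8). RNAP-ser5 was at 59.7% and 37.5% (8.52 to 75.5), and RNAP-ser2 at 75.4% and 62.5% (24.5 to 91.5). H3K9ac was at 62.1% of lost and 62.5% of kept peaks (24.5 to 91.5). Each of these kept intervals included the lost share. With marks counted within 1000 bp, H3K4me3 was at 90.1% of lost and 88% of kept peaks.

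**Figure D4:**
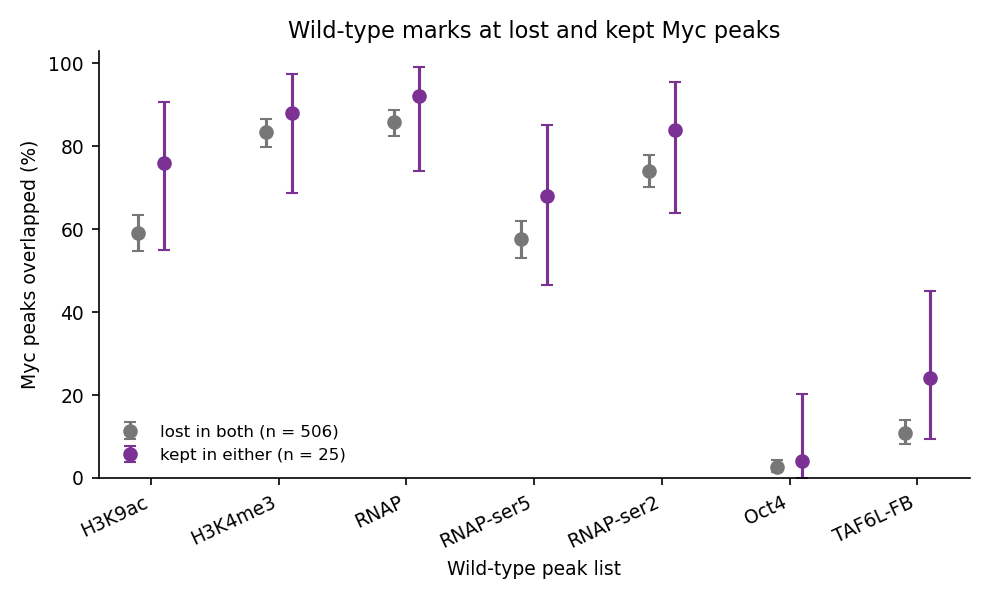
Share (%) of the 506 lost (grey) and 25 kept (purple) wild-type Myc peaks that overlapped each wild-type list, with exact 95% binomial intervals as bars. H3K9ac was at 59.1% of lost and 76.0% of kept peaks, and the wide intervals of the kept peaks include the lost share for each list drawn (TAF6L-FB over both lines).

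By combination of marks, most kept peaks carried H3K4me3, RNAP and H3K9ac, as did 57.4% of all wild-type Myc peaks. Of the 305 peaks with H3K4me3, RNAP and H3K9ac, 19 were kept in either knockout (6.23%, interval 3.79 to 9.56). Of the 112 with H3K4me3 and RNAP only, 3 were kept (2.68%, 0.556 to 7.63). Both intervals include the share kept in either knockout over all wild-type peaks, 4.71%. Of the 44 with none of the 3 marks, 2 were kept, and both lie under the same Taf5l-KO peak on chromosome 19. None of the 21 peaks with H3K4me3 alone was kept, which allows a share of up to 14.3%. The 305 were also wider, with a median of 190 bp against 136 bp for the 112.

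At the lost sites, H3K4me3, RNAP and RNAP-ser2 peaks were about as frequent in the knockout lists as in the wild-type lists, while H3K9ac and RNAP-ser5 differed. Of the 506 sites, 83.4% carried H3K4me3 in wild-type cells, 81.8% in Taf5l-KO cells and 83.4% in Taf6l-KO. RNAP was at 85.8%, 87.0% and 86.8% of them, and RNAP-ser2 at 74.1%, 70.8% and 73.5%. RNAP-ser5 was at 57.5% (53.1 to 61.9), 68.6% (64.3 to 72.6) and 42.1% (37.8 to 46.5). Its libraries held 3871824, 8807133 and 1702363 unique tags, the last being the shallowest of all, and its lists 43394, 21492 and 15873 peaks. The RNAP libraries held 5174150, 15865460 and 7236644 unique tags. The part of depth in these shares was not tested. H3K9ac was at 299 sites (59.1%) in wild-type cells but at 15 (2.96%, 1.67 to 4.84) in Taf5l-KO and at 112 (22.1%, 18.6 to 26.0) in Taf6l-KO. The H3K9ac lists as a whole held 4023, 110 and 880 peaks on these chromosomes. The same places thus had fewer listed H3K9ac peaks, and similar numbers of sites with H3K4me3 or RNAP.

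**Figure D5:**
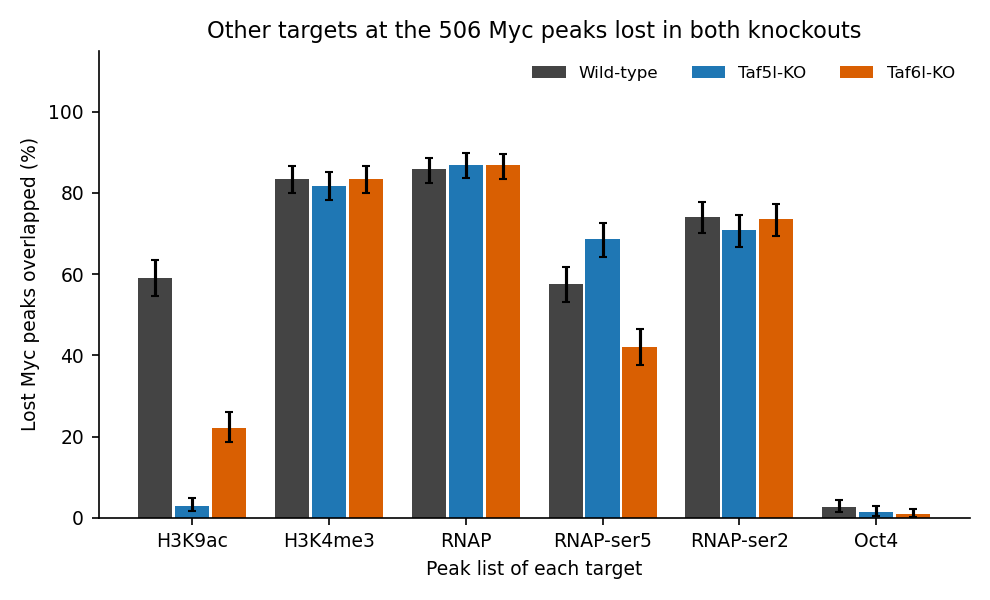
Bars give the share (%) of the 506 Myc sites lost in both knockouts that overlapped a peak of each target in wild-type (dark grey), Taf5l-KO (blue) and Taf6l-KO (orange) cells, with exact 95% binomial intervals. H3K9ac stands at 59.1%, 2.96% and 22.1%, and H3K4me3 and RNAP stand between 81.8% and 87.0% in all 3 genotypes.

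H3K9ac in the same knockout was listed at a larger share of kept than of lost Myc sites, but on few sites. In Taf5l-KO, H3K9ac was listed at 4 of the 20 sites where Myc was kept (20%, interval 5.73 to 43.7) and at 15 of the 511 where it was lost (2.94%, 1.65 to 4.80). Among sites with H3K9ac in wild-type cells these were 4 of 16 (25%, 7.27 to 52.4) and 15 of 302 (4.97%, 2.81 to 8.06). In Taf6l-KO, H3K9ac was listed at 3 of the 8 kept sites (37.5%, 8.52 to 75.5) and at 120 of the 523 lost sites (22.9%, 19.4 to 26.8). The Taf5l-KO numbers rest on 4 sites, and the sites kept there were also stronger and wider, so the parts of strength and of acetylation cannot be told apart with them.

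Wild-type H3K9ac peaks with Myc were kept in the knockout lists in larger shares than those without. Of the 286 wild-type H3K9ac peaks with Myc, 8.04% (5.17 to 11.8) were kept in Taf5l-KO, against 47.2% (41.3 to 53.2) in Taf6l-KO. Of the 3737 without Myc, 2.19% (1.75 to 2.72) and 17.2% (16.0 to 18.5) were kept. Within the strongest quintile of the H3K9ac list the shares in Taf6l-KO were 64% (55.8 to 71.7) of 150 with Myc and 46.1% (42.2 to 50.0) of 655 without. In Taf5l-KO they were 14% (8.88 to 20.6) and 8.85% (6.79 to 11.3), whose intervals overlap. The H3K9ac peaks with Myc were also wider in that quintile, with medians of 1235 and 683 bp, and the part of width in this difference was not tested.

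H3K4me3 and RNAP peaks with Myc were nearly all kept, and so were most strong ones without Myc. H3K4me3 peaks with Myc were kept at 98.3% in Taf5l-KO cells and 98.0% in Taf6l-KO, against 84.0% and 80.0% of those without Myc. RNAP peaks with Myc were kept at 97.4% and 97.1%, against 51.8% and 59.6% without. Within the strongest quintile of each mark's list, H3K4me3 peaks were kept at 100% with and without Myc in both knockouts. RNAP peaks of that quintile were kept at 99.3% and 98.9% with Myc and at 90.3% and 95.8% without. At the 419 Myc sites with H3K4me3 in all 3 genotypes, the H3K4me3 peak had a median width of 2949 bp in wild-type cells, 2642 bp in Taf5l-KO cells and 2479 bp in Taf6l-KO. The median over the whole lists, which hold mostly narrower peaks, was 786, 784 and 782.5 bp. The H3K4me3 libraries held 15136528, 8886529 and 13041135 unique tags, and the part of depth in these widths was not tested. No peaks of like width without Myc were compared. At the 430 sites with RNAP throughout, the RNAP peak measured 1577, 1847.5 and 1615.5 bp, against 479, 568 and 526 bp over the whole lists. The H3K9ac peak at the 19 Myc sites acetylated in all 3 genotypes measured 1246, 380 and 688 bp, and the whole H3K9ac lists likewise had smaller medians in the knockouts (479, 135 and 276 bp).

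The 3 wild-type Myc peaks found again in both knockouts were not alike. The peak on chromosome 1 from 135027571 to 135028015 was strong, with a wild-type fold enrichment of 23.0 (rank 14) and a width of 445 bp. Taf5l-KO had a peak of 284 bp there with a fold enrichment of 11.8, and Taf6l-KO 1 of 63 bp with 6.53. Its wild-type site carried H3K9ac, H3K4me3, RNAP and a TAF6L-FB peak. The peak on chromosome 11 from 57916185 to 57916401 was of middling strength (9.31, rank 188), with knockout values of 5.59 and 6.64. RNAP was listed there in all 3 genotypes, H3K4me3 in wild-type cells only and H3K9ac in none.

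The third, on chromosome 9 from 78328610 to 78329527, was 918 bp long, the second widest of the wild-type list, and its fold enrichment was 8.85 (rank 223). The knockout peaks in it were short, 76 bp in Taf5l-KO cells and 65 bp in Taf6l-KO, and lay 124 and 141 bp from the wild-type summit. They ranked high among the peaks used of their own lists, the Taf6l-KO peak being the strongest at 14.2 and the Taf5l-KO peak the 4th at 9.86. The site held 2 wild-type Oct4 peaks, with fold enrichments of 10.9 and 11.9, and lay under an RNAP peak of 12142 bp. A TAF6L-FB line 15 peak (4.57) and H3K9ac in wild-type cells (7.71) and Taf6l-KO (9.88) were also listed there.

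The strongest wild-type Myc peak of all was kept in Taf5l-KO only. This peak, on chromosome 19 from 8787411 to 8787778, reached a fold enrichment of 41.6, with a pileup of 82.3 and a TAF6L-FB peak. The Taf5l-KO peak in it was 84 bp wide, with a fold enrichment of 7.33 and its summit 1 bp away. Next in that group came chromosome 17 from 17511204 to 17511528 (wild-type fold enrichment 31.8, Taf5l-KO 9.73), and then chromosome 4 from 128866996 to 128867406 (25.7 and 7.30). They were followed by chromosome 1 from 88255118 to 88255559 (22.5 and 7.45) and by chromosome 8 from 87595379 to 87595725 (21.0 and 5.59). H3K9ac was listed in all 3 genotypes at the sites on chromosomes 17 and 1, and in wild-type cells only at the other 3. All 5 carried H3K4me3 and RNAP in every genotype.

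The strongest of the Taf5l-KO peaks used lay elsewhere on chromosome 19. There 2 wild-type Myc peaks of moderate strength, from 53881168 to 53881309 and from 53881364 to 53881513 (fold enrichment 7.59 and 8.73, around the list's median of 8.16), lay under 1 Taf5l-KO peak from 53881194 to 53881584. That peak was the widest and strongest of the Taf5l-KO peaks used, at 391 bp and 13.7. No H3K4me3, RNAP or H3K9ac peak was listed there in wild-type cells. H3K4me3 was listed in both knockouts, at 7.94 in Taf5l-KO cells and 6.26 in Taf6l-KO, and Oct4 in Taf5l-KO at 5.10. This site falls outside the rule by which the other regions were named and was chosen after its values had been seen.

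The peaks kept in Taf6l-KO only were 5. The strongest lay on chromosome 4 from 140255462 to 140255848 (wild-type fold enrichment 27.2, rank 6, and 7.22 in Taf6l-KO). Those on chromosome 2 from 10286675 to 10286904 (11.5 and 6.07) and chromosome 16 from 35771307 to 35771521 (10.5 and 6.07) were weaker, and so was a peak of chromosome 15 from 103070972 to 103071533 (8.44 and 5.49). These 4 carried H3K4me3 and RNAP in every genotype. The last, on chromosome 15 from 74917191 to 74917439, had the lowest fold enrichment of the wild-type list (1.85) and its highest pileup (146.9). In Taf6l-KO its fold enrichment was 2.28 at a pileup of 58.3. RNAP (2.12) and TAF6L-FB line 9 (1.84) were listed there at similarly low enrichment, so its local background was high in several libraries. Without the 3 wild-type peaks whose pileup was at least 10 times their fold enrichment, a limit chosen after seeing the data, 1.33% of wild-type peaks were kept in Taf6l-KO and 3.79% in Taf5l-KO.

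Among the strongest lost peaks, promoter sites and an isolated site stood side by side. The 6 strongest had wild-type fold enrichments of 34.5, 29.3, 28.9, 26.5, 25.6 and 24.8. They lay on chromosome 4 (46463508 to 46463900 and 117508998 to 117509280), chromosome 8 (72682482 to 72682850), chromosome 7 (52074340 to 52074593), chromosome 11 (105927204 to 105927406) and again chromosome 8 (23655448 to 23655748). The first 4 carried H3K9ac, H3K4me3 and RNAP in wild-type cells, and kept H3K4me3 and RNAP but not H3K9ac in both knockouts. The site on chromosome 11 carried H3K4me3 and RNAP in every genotype and H3K9ac in none. The last, 301 bp wide, overlapped no peak of any other target in any genotype.

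That isolated site was 1 of 44 wild-type Myc peaks without H3K4me3, RNAP or H3K9ac. Of the 44, 3 carried RNAP-ser2, 2 Oct4 and 1 TAF6L-FB, and 38 overlapped none of the other wild-type lists. Within 1000 bp, 19 of the 44 had an H3K4me3 or RNAP peak. Of the 38, 8 overlapped H3K4me3 and 7 RNAP in a knockout, and 22 overlapped no peak of any other target in any genotype. Their fold enrichment reached 24.8 with a median of 7.59, and 5 of the 38 belonged to the strongest quintile.

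New Myc peaks were few. The new Taf5l-KO peak, on chromosome 11 from 69025050 to 69025248, was the third strongest of the Taf5l-KO peaks used (10.9) and overlapped only an H3K4me3 peak of Taf6l-KO. The nearest wild-type Myc summit was 310 kb away. In Taf6l-KO the strongest new peak lay on chromosome 11 from 98564614 to 98564667 (11.3), on a wild-type Oct4 peak with a fold enrichment of 13.2 and a wild-type RNAP-ser5 peak with 3.39, and 20.8 kb from a wild-type Myc summit. The other 2 lay on chromosome 17 from 24479797 to 24479893 (6.07) and, at 7.80, on chromosome 7 from 36056545 to 36056645, and overlapped no other list. None of the 4 new peaks overlapped H3K9ac, H3K4me3 or total RNAP of wild-type cells.

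Wild-type Myc peaks were spread over all 19 chromosomes and seldom clustered. When peaks less than 1000 bp apart were joined, 497 regions resulted, of which 465 held 1 peak and none more than 3. Chromosome 11 held the most, 69 peaks (13.0%), or 29.1 per 1000 of its H3K4me3 peaks, against 6.66 on chromosome 13. Chromosome 19 held 20 wild-type peaks, of which 4 were kept in Taf5l-KO, under 3 Taf5l-KO peaks. Chromosome 5 held 38, of which none was kept in either knockout (a share of up to 7.89% is allowed). Over all chromosomes used, 3.77% of wild-type peaks were kept in Taf5l-KO and 4.71% in either knockout. Whether chromosomes differ was not tested.

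The peaks left out were few in wild-type cells and made up much of the deposited knockout lists. The deposited lists held 539, 34 and 23 Myc peaks. On chromosome X there were 7 in wild-type cells, 2 in Taf5l-KO cells and 1 in Taf6l-KO, and 1 wild-type peak lay on another contig. The Taf6l-KO peak on chromosome X lay on a wild-type Myc peak, as did 1 of the 2 Taf5l-KO peaks. At 512 bp and a fold enrichment of 33.2, that Taf6l-KO peak was wider and stronger than every Taf6l-KO peak used. The run on chromosome 3 held 12 Taf5l-KO peaks between 123072309 and 123088746, with a median width of 74.5 bp, and 11 Taf6l-KO peaks between 123072307 and 123088750, with a median of 98 bp. Wild-type cells had no Myc peak there, but 11 Oct4 peaks, and all 12 and all 11 knockout Myc peaks of the run overlapped one of them. Oct4 had 1 peak in the run in Taf5l-KO and none in Taf6l-KO.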

How the data were processed

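The members, lists and named regions were chosen with earlier results of these data known. The submitters' processing notes name Bowtie2 2.3.2, deepTools 2.5.3 and the build mm9. Peaks were called per library with MACS2 2.1.1.20160309 against an input at a q cutoff of 0.05, without pooling, per the file headers. H3K9ac, H3K4me3 and polymerase lists were called as broad peaks, Myc and Oct4 without that, per the file headers. The deposited pileup is a signal that scales with depth, the deposited fold enrichment is a ratio to local background, and p and q are deposited as −log10 values. Here they served for ranking and filtering inside each list. Values of different lists printed side by side at a site describe that site and do not compare signal.

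From these lists, overlaps of at least 1 bp, medians and exact binomial intervals were computed with Python 3.11.15, pandas 2.3.3 and scipy 1.17.1. Overlaps were tested on simulated lists. Named regions are the 6 strongest peaks lost in both, every peak kept in both, the 5 strongest kept in each knockout alone, and every new peak. TAF5L-FB and TAF6L-FB each combine the lists of 2 lines. Alternatives were a stricter q, other overlaps, windows and chromosomes, removal of BirA regions, and the strongest 100 peaks. No annotation of mm9 was used here, so the targeted genes were not analysed here.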

Additional observations from a re-analysis of the deposited data

Results flagged for a closer look

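A run of short Myc peaks on chromosome 3, which the main comparisons left out, held 12 peaks in Taf5l-KO and 11 in Taf6l-KO, against 0 in wild-type cells. It was left out by the choice of regions as a run of short, exon-like peaks, and no annotation was used here to check that description. It is flagged because Myc was listed there in the knockouts and not in wild-type cells. All of these peaks lay on wild-type Oct4 peaks, of which the run held 11, against 1 Oct4 peak in Taf5l-KO and 0 in Taf6l-KO. Wild-type H3K9ac and H3K4me3 each had 1 peak in it. The fold enrichment of its peaks ranged from 7.74 to 16.4 in the Taf5l-KO list and reached 33.2 in the Taf6l-KO list, where the lowest was 12.2, so in both lists it reached above the strongest Myc peak used. Its origin was not tested.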

How the results depend on the processing

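Of 184 values recomputed under another setting, 148 stayed near the main value and 36 moved further. For shares, near meant inside the counting interval, and for ratios and counts within 1.5 times. For median widths it meant between the quartiles over peaks, which are not a counting interval. The order of kept and lost peaks turned in some: with Myc peaks at −log10 q of at least 5 for H3K4me3 and the 3 polymerase forms, with marks past that q for RNAP-ser5 (lost 17.4%, kept 16%), with 50% covered for Oct4 (2.17% and 0%), and with marks within 1000 bp for H3K4me3 (90.1% and 88%) and Oct4 (4.15% and 4%). The ratios of peak number were, for Taf5l-KO and Taf6l-KO, 0.0201 and 0.00754 under the stricter limit (−log10 q of at least 5), or 0.0603 and 0.0414 with the run on chromosome 3 kept in. The kept shares were 2.01% and 0.251% at that q in both lists, 0.942% and 0% with 50% of the peak covered, and 12.0% in Taf5l-KO for the strongest 100 peaks. Lost peaks at wild-type H3K9ac, H3K4me3 and RNAP were 29.6%, 77.5% and 69.8% with only mark peaks past that limit, and 71.9%, 90.1% and 90.3% with marks within 1000 bp. Kept peaks at H3K9ac were 44.0% with that limit on the mark, and lost peaks at H3K9ac 51.4% with 50% covered. The median width in Taf5l-KO was 156.5 bp at −log10 q of at least 5. For these values the cause was not tested. With neighbouring wild-type peaks joined, an alternative chosen after seeing the data, 3.82% and 1.61% were kept. No paired analysis was possible because each genotype had 1 library and no test was made. The 20 and 11 knockout peaks limit every share given for them.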
